A study of Mus musculus with 18 samples.

Results

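A set of 10 mouse genes of bone morphogenetic protein (BMP) signalling was followed in C2C12 myotubes treated with dexamethasone (Dex), a synthetic glucocorticoid. The set holds the 4 Id genes (Id1, Id2, Id3, Id4), the ligand gene Bmp4, the receptor gene Bmpr1a, the secreted regulators Bmper and Grem1, and the inhibitory SMAD genes Smad6 and Smad7. Members were chosen by gene symbol in the platform's probe annotation, with all probes of a gene kept. They numbered 10 of 19057 genes and 15 of 45281 probes. Id2 had 3 probes, Id4, Bmp4 and Bmpr1a had 2 each, and the other genes had 1.

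C2C12 is a mouse myoblast line whose cells fuse into muscle fibre-like myotubes, so all groups model 1 established line. Myotubes in medium with 2% horse serum received Dex at 1 uM, or ethanol, its vehicle, at 0.01% of the medium volume. RNA was taken after 6 h (4 ethanol and 4 Dex arrays) or 24 h (5 of each) and read on Illumina mouse whole-genome bead arrays. No genotype differed between groups, and no label says that replicates were separate cultures, so the spread between arrays may be technical.

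BMP ligands bind paired type I and type II receptors, which phosphorylate SMAD1, SMAD5 and SMAD9. These SMADs enter the nucleus with SMAD4 and switch on target genes, of which the Id genes are the best known. Id proteins hold a helix-loop-helix but no DNA-binding region, and they bind E proteins and so keep MyoD-type factors from DNA. BMP ligands are known to turn C2C12 myoblasts away from muscle and towards bone-forming cells.

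With Dex, 4 of the 10 genes had arrays that stood apart from ethanol at 1 or both times. Of all genes, 10.9% did so at 6 h and 16.3% at 24 h, and the share at either time was not counted. Grem1 and Id2 were lower at both times, Bmp4 was lower at 24 h, and Bmper was higher at 6 h. The remaining 6 genes, which include Id1, Id3 and Bmpr1a, had overlapping groups at both times.

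The members were proposed with the Dex comparisons of these same arrays known, so their Dex differences are a description and carry no p-value. In the linear model over all probes (limma, adjusted p under 0.05), 3 member genes were called at 6 h by their brightest probe, where 4.34% of all genes were called. Of these 1 was higher and 2 were lower, where 2.41% and 1.93% of all genes were. At 24 h 3 were called, where 8.58% of all genes were called. All 3 were lower and 0 higher, where 4.23% and 4.34% of all genes were. The groups did not overlap at 6 h for 3 member genes (10.9% of all genes), 1 higher and 2 lower with Dex (5.59% and 5.31%). At 24 h they did not overlap for 3 (16.3% of all genes), 0 higher and 3 lower (8.42% and 7.86%).

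Sequences upstream of the start site are given for 3 genes that were lower with Dex, since the motif counts that follow were made on such windows. Windows in the table of RefSeq promoters on assembly GRCm38.p6 were read for 8 of the 10 members. Id1 had none there, and Smad7 was left out by choice. The 250 bases before the start site were read, 5' to 3' on the gene's strand. Capitals mark the letters GGCGCC, a GC-rich palindrome that BMP-activated SMADs are known to bind.

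Id2, chr12:25096093-25096342, minus strand: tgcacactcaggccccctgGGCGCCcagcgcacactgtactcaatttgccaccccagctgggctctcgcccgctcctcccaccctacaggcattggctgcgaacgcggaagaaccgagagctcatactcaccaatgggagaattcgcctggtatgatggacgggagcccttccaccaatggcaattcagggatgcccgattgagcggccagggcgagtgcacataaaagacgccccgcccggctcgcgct
Grem1, chr2:113758649-113758898, minus strand: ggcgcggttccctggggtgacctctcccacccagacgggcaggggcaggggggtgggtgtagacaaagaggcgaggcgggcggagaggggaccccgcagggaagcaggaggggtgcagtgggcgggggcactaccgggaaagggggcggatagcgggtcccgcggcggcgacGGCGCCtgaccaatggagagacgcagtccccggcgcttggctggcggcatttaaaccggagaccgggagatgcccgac
Bmp4, chr14:46390670-46390919, minus strand: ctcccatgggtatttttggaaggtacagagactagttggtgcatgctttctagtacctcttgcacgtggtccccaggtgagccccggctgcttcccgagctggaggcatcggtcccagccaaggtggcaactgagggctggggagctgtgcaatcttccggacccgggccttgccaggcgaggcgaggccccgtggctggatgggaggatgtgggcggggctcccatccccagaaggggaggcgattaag

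Both strands were searched for 6 motifs. GGCGCC was found once in the windows of Id2 (231 bases before the start site), Grem1 (78 bases), Id4 (148 bases) and Bmpr1a (198 bases), and not in those of Id3, Bmp4, Bmper and Smad6. It occurs in 9.59% of all 32851 promoter windows of this length. The motif holds only G and C, and the member windows were 62.8% to 78.8% G and C, against a median of 52.4% over all windows. AGAACA, 1 arm of the glucocorticoid receptor's site, occurred in 1 member window, that of Smad6 (as TGTTCT, 76 bases before the start site), and in 16.1% of all windows. The full receptor palindrome, the SMAD palindrome GTCTAGAC and the CREB site TGACGTCA occurred in no member window, and in 0.00913%, 0.167% and 1.55% of all windows. An E-box, CANNTG, the site of E protein and MyoD dimers, occurred once for Id2 and 3 times for Bmp4, and in 66.2% of all windows. GGCGCC, GTCTAGAC and TGACGTCA are palindromes, so a match reads the same on both strands. A match describes letters only, and all windows end at the start site, so sites farther away were not searched.

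The arrays carried the marks of myotubes. All 10 measured myotube markers, among them the actin gene Acta1 and the troponin gene Tnnt1, read above 2 times the array median in every group, and their summed intensity ranged from 218403 to 228875 at 6 h and from 160133 to 178454 at 24 h. None of the 6 measured osteoblast markers did so, Sp7, Ibsp and Alpl included, and of 6 adipocyte markers only Pparg did. At 24 h the markers Actc1 and Ckm rose by 0.33 and 0.30 on the log2 scale and Myog, the myogenin gene, fell by 0.32 (limma adjusted p = 0.0234, 0.0425 and 0.0380). Cdk1, the mitotic kinase gene, rose by 0.43 and the adipocyte marker Cebpa by 0.44 (limma adjusted p = 0.0023 and 0.0027). Of 4 measured markers of dividing myoblasts, Cdk1 stood at 4.38 to 5.92 times the median over the groups, Top2a at 2.16 and 2.21 times in ethanol and under 2 times with Dex, and Myf5 and Pax7 near or below it. The 4 had summed intensities from 849 to 980 at 6 h. At 24 h the sums overlapped, from 659.5 to 800.6 in ethanol and from 765.3 to 964.2 with Dex. Top2a, Myf5 and Pax7 were not called at 24 h (log2 fold changes -0.19, 0.06 and -0.10). The part of these changes in the results on the members was not tested, and in bulk RNA fewer cells of a type and less RNA per cell cannot be told apart. The glucocorticoid receptor targets Fkbp5, Tsc22d3 and Per1 rose at both times, in the direction the labels call for, Fkbp5 from 274 ± 21.0 to 4180 ± 229 at 6 h (SD, n = 4 each; limma adjusted p = 4.71e-20).

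Array medians were 99.8 to 100.4 at 6 h and 85.2 to 86.8 at 24 h, so the times appear to have been normalized separately. Intensities are therefore compared within a time, and between times only as multiples of the array median, with no test. In ethanol, 6 of the 10 genes read above 2 times the median at 6 h, and 6 did so at 24 h. Detection p-values were not used here, so readings near the median are not shown to be above background.

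**Figure D1:**
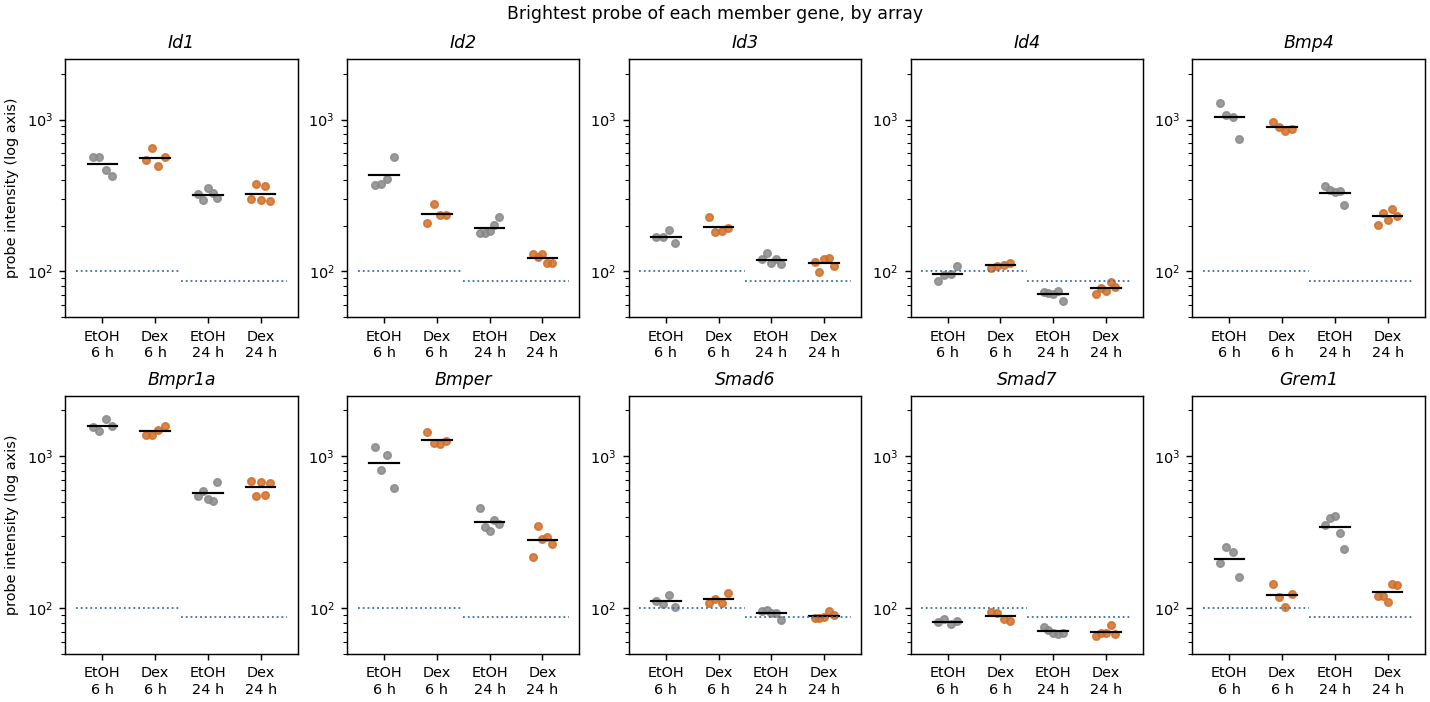
Probe intensity on a log axis for the brightest probe of each member gene, with a point for each array (4 per group at 6 h, 5 at 24 h), a black bar at the group mean and a dotted line at the highest array median of that time. Grey is ethanol and orange is Dex. The Dex arrays lie below the ethanol arrays for Grem1 and Id2 at both times and for Bmp4 at 24 h, while Id4, Smad6 and Smad7 lie near the median in all groups.

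Id2, which dimerises with E proteins and holds back differentiation, was the Id gene that differed with Dex. At 6 h its brightest probe (ILMN_1228557) read 371, 375, 406 and 569 in ethanol replicates 1 to 4. In Dex replicates 1 to 4 it read 208, 278, 234 and 234. All Dex arrays lay below all ethanol arrays, and the high ethanol value was that of replicate 4. The means were 430.2 ± 93.7 and 238 ± 29.2 (SD, n = 4 each). The log2 fold change was -0.84 (SE 0.12), or 0.560 times the ethanol level. It was the 26th lowest fold change of the 19057 genes.

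At 24 h this probe read 179, 178, 185, 203 and 227 in ethanol replicates 1 to 5. In Dex replicates 1 to 5 it read 131, 124, 131, 114 and 113. The groups were again apart, with means of 194 ± 20.9 and 123 ± 8.64 (SD, n = 5 each) and a log2 fold change of -0.66 (SE 0.11). With Dex the probe stood at 1.43 times the array median, so part of the reading may be background and the fold change may be understated. Between the times, the difference of the 2 fold changes was 0.18 (SE 0.16) and was not called.

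The other 2 probes of Id2 were dimmer and differed less. Probe ILMN_1236868 read 161 ± 20.1 with ethanol and 116 ± 8.70 with Dex at 6 h, where its groups did not overlap (log2 fold change -0.47, SE 0.10). At 24 h it read 109 ± 10.6 and 100.1 ± 10.8, with overlapping groups (-0.13, SE 0.09). Probe ILMN_2887239 read 125 ± 12.1 and 108 ± 7.55 at 6 h (-0.20, SE 0.09), and 86.5 ± 6.18 and 87.3 ± 5.56 at 24 h, close to the array median at both times. The mean over the 3 probes was -0.50 at 6 h and -0.26 at 24 h. The lower Id2 reading at 24 h therefore rests on the brightest probe.

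Id1, the Id gene with the brightest probe and a classical early BMP target, had overlapping groups. It read 568, 569, 469 and 425 in ethanol and 541, 648, 491 and 566 in Dex at 6 h (replicates 1 to 4), a log2 fold change of 0.15 (SE 0.11). At 24 h it read 324, 295, 354, 328 and 302 in ethanol and 298, 377, 295, 367 and 289.5 in Dex (replicates 1 to 5), a log2 fold change of 0.02 (SE 0.10). The mean levels at 24 h were 320.5 ± 23.4 and 325 ± 42.9 (SD, n = 5 each), a gap far smaller than either SD.

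Id3, a further BMP-induced member, read 169, 168, 187 and 155 in ethanol and 229, 181, 183 and 193 in Dex at 6 h (log2 fold change 0.21, SE 0.09). At 24 h the means were 119.7 ± 8.50 and 114 ± 9.51 (-0.08, SE 0.08). The groups overlapped at both times. The 2 probes of Id4 read between 63.8 and 113.5 over all arrays, around the array median, and its groups overlapped at both times. Its brightest probe had log2 fold changes of 0.19 (SE 0.08) at 6 h and 0.13 (SE 0.07) at 24 h.

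**Figure D2:**
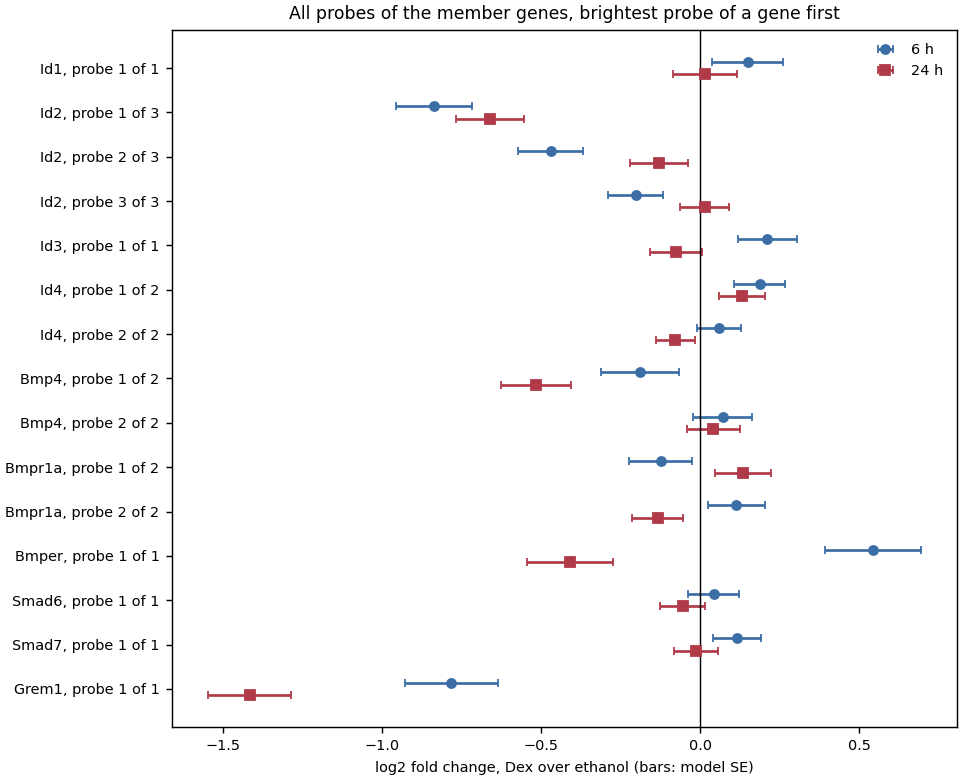
Log2 fold change of Dex over ethanol for all 15 member probes at 6 h (blue circles) and 24 h (red squares), with bars for the model's SE. Grem1 and the brightest Id2 probe lie far to the left at both times, while the dimmer probes of Id2 and Bmp4 lie nearer to 0 than the brightest probe of the same gene.

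Bmp4, the BMP ligand of the set, was bright at 6 h and lower with Dex at 24 h. At 6 h its brightest probe (ILMN_1215252) read 1293, 1064, 1036 and 741 in ethanol and 963, 893, 835 and 869 in Dex (replicates 1 to 4). The Dex values fell inside the ethanol range, and the log2 fold change was -0.19 (SE 0.12). At 24 h it read 366, 341, 333, 338 and 273 in ethanol and 202, 242, 217, 259 and 233 in Dex (replicates 1 to 5). All Dex arrays then lay below all ethanol arrays, with means of 330.3 ± 34.5 and 230.5 ± 21.8 (SD, n = 5 each) and a log2 fold change of -0.52 (SE 0.11). The difference between the 2 times was -0.33 (SE 0.17) and was not called. The second probe (ILMN_1235698) read 111 ± 10.7 and 117 ± 14.5 at 6 h and 79.8 ± 4.99 and 82.2 ± 5.52 at 24 h, near the array median, with overlapping groups. The mean of both probes was -0.24 at 24 h and was not called, so the Bmp4 difference rests on 1 probe.

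Bmpr1a encodes a type I BMP receptor, and its 2 probes had fold changes of opposite sign at each time, each larger than its SE and none called. Probe ILMN_1251119 read 1587 ± 124 with ethanol and 1455 ± 95.1 with Dex at 6 h (log2 fold change -0.12, SE 0.10), and 569.7 ± 67.6 and 625 ± 68.9 at 24 h (0.13, SE 0.09). Probe ILMN_2653312 read 319 ± 19.6 and 346 ± 36.1 at 6 h (0.11, SE 0.09), and 369 ± 28.8 and 336 ± 25.2 at 24 h (-0.13, SE 0.08). All 4 pairs of groups overlapped.

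Bmper encodes a secreted protein with chordin-type repeats that binds BMPs and can hinder or aid their signalling. At 6 h it read 1142, 805, 1020 and 621 in ethanol and 1440, 1211, 1199 and 1253 in Dex (replicates 1 to 4). All Dex arrays lay above all ethanol arrays, whose own range was wide, and the log2 fold change was 0.54 (SE 0.15). At 24 h it read 457, 340, 322, 377 and 357 in ethanol and 216, 344, 283, 294 and 262 in Dex (replicates 1 to 5). There the groups overlapped, because Dex replicate 2 read above 2 of the ethanol arrays, and the log2 fold change was -0.41 (SE 0.14). The difference between the 2 times, -0.95 (SE 0.20), was called in the model, and Bmper was the only member so called. Of all genes 1.19% were called for this difference, 0.588% as higher and 0.603% as lower. The 6 h and 24 h values that make it up were both known when the gene was chosen.

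The 6 h call of Bmper was the least steady among the members. It was lost under 17 of 29 alternatives, and the fold change was 0.38 without ethanol replicate 4, 0.48 without Dex replicate 1, 0.50 without ethanol replicate 2 and between 0.55 and 0.57 without Dex replicates 2, 3 or 4, each of which ended it. Leaving out 24 h ethanol replicates 4 or 5 or Dex replicates 3, 4 or 5 also ended the 6 h call, with the fold change as before, since the arrays share 1 estimate of the spread. At 24 h Bmper was called lower without 6 h ethanol replicates 1 or 4 (-0.41) or without Dex replicate 2 (-0.49). It was also called lower with the replicate number as a block, without the covariates, with each time fitted alone (-0.41 in these) and with array weights (-0.44). Ethanol replicate 4 at 6 h held the lowest value of its group for 8 of the 15 member probes, among them those of Bmper, Bmp4, Grem1 and Id1.

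Grem1 encodes gremlin 1, a secreted antagonist that binds BMP2, BMP4 and BMP7. It had the largest Dex difference of the members at 24 h, and the brightest Id2 probe had the largest at 6 h. The order at 6 h is not firm, with -0.84 (SE 0.12) for that probe and -0.78 (SE 0.15) for Grem1. The 3 probes of Id2 averaged -0.50 there. At 6 h Grem1 read 197, 252, 235 and 160.5 in ethanol and 144, 118, 102 and 124 in Dex (replicates 1 to 4). The groups did not overlap, and the gap between the lowest ethanol and the highest Dex array was small next to the spread within ethanol. The means were 211 ± 40.8 and 122 ± 17.6 (SD, n = 4 each), which gave -0.78 on the log2 scale (SE 0.15).

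At 24 h Grem1 read 355, 394, 405, 313 and 243 in ethanol and 119, 119.5, 109.6, 144 and 141 in Dex (replicates 1 to 5). All 5 Dex arrays lay far below the 5 ethanol arrays. The means were 342 ± 66.1 and 127 ± 15.1 (SD, n = 5 each), and the log2 fold change of -1.42 (SE 0.13) left 0.375 times the ethanol level. Only 10 of the 19057 genes had a lower fold change at 24 h, against 34 at 6 h. The difference between the 2 times was -0.63 (SE 0.20) and was not called. With Dex, Grem1 stood at 1.22 times the array median at 6 h and 1.47 times at 24 h, so background in these readings would make the fold changes too small. After a background correction (normexp with an offset of 16) they were -1.22 and -1.86.

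**Figure D3:**
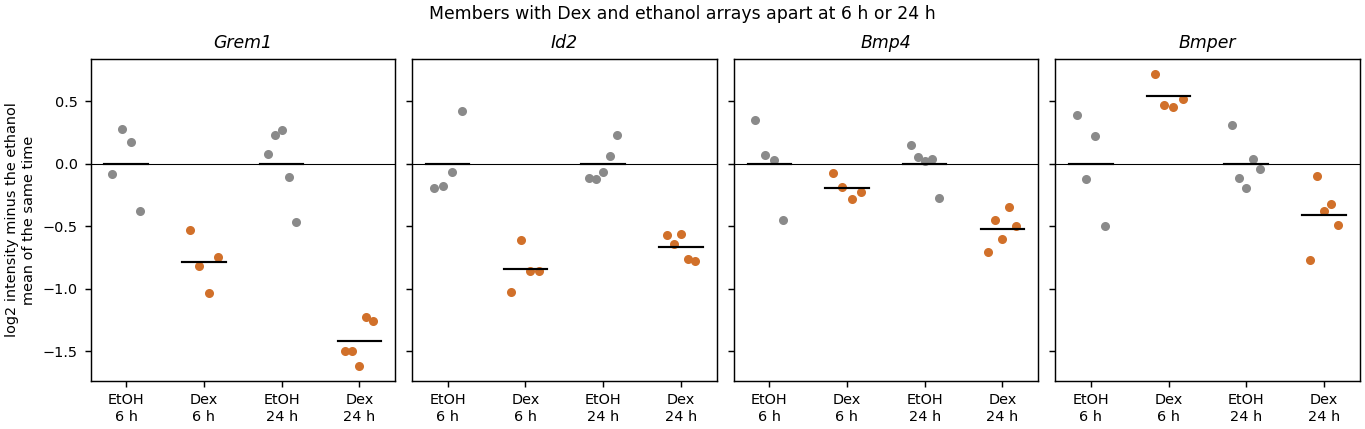
Log2 intensity of Grem1, Id2, Bmp4 and Bmper (brightest probes), each array minus the ethanol mean of the same time, with a black bar at the group mean. Dex arrays (orange) of Grem1 average -0.78 at 6 h and -1.42 at 24 h, while those of Bmper average 0.54 at 6 h and -0.41 at 24 h.

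Smad6 and Smad7 encode inhibitory SMADs, which BMP and TGF-beta signals induce and which block the receptors in turn. Smad6 read 111 ± 8.53 with ethanol and 114 ± 8.26 with Dex at 6 h, and 92.5 ± 5.42 and 88.9 ± 4.18 at 24 h (log2 fold changes 0.04 and -0.06, SE 0.08 and 0.07). Smad7 read 81.4 ± 2.52 and 88.4 ± 6.27 at 6 h, and 70.2 ± 2.97 and 69.6 ± 4.49 at 24 h (0.12 and -0.01, SE 0.08 and 0.07). The groups of both overlapped at both times. Smad7 lay below the array median in all groups and was dimmer than all but 3.16% of the probes, so these readings say little about its mRNA.

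Relative to the array median, the ethanol levels of the bright members were lower at 24 h than at 6 h. Bmp4 stood at 10.3 times the median at 6 h and 3.84 times at 24 h, the brightest Bmpr1a probe at 15.9 and 6.63 times, Bmper at 8.96 and 4.31 times, Id1 at 5.07 and 3.73 times and Id2 at 4.30 and 2.26 times. Grem1 went the other way, from 2.11 to 3.98 times, and the second Bmpr1a probe from 3.18 to 4.29 times. The lower level is not particular to the members. Of pathway genes that are not members, Chrd, Rgma, Bmpr2 and Acvr1 also stood lower at 24 h, and Smad5 stood higher. Time cannot be told apart here from the separate normalization, and no test was made.

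Genes with the most similar pattern were ranked by the root mean square difference of log2 values, each array taken relative to the ethanol mean of its time, over the 18 arrays. For Id2 they were Apol9b (0.16), the MAPK phosphatase gene Dusp4 (0.18) and the interferon regulatory factor gene Irf1 (0.19), whose log2 fold changes were -0.84, -0.76 and -0.70 at 6 h. For Grem1 they were Crabp2, a retinoic acid binding protein gene (0.20), Insc (0.24) and the adhesion molecule gene Vcam1 (0.26), with -1.37, -1.12 and -1.32 at 24 h. For Bmp4 they were Tnfrsf25, Srpx2 and Csad (0.10 to 0.11), and for Bmper they were Bdnf, a neurotrophin gene, Zfp608 and Gadd45g (0.20 to 0.22). The comparison was among 19047 genes that are not members.

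The rest of the pathway, and 3 E protein genes, were read from a list of 62 further genes, 57 of which were measured. At 6 h 4 of them rose and 3 fell (limma adjusted p under 0.05 over all 45281 probes), which is 12.3% against 4.34% of all genes, with a median log2 fold change of -0.05 against 0.00 over all genes. At 24 h 4 rose and 4 fell, or 14% against 8.58% of all genes, with a median of -0.02 against 0.00. The list moved in both directions at both times. The E protein gene Tcf4 is among the 4 that fell at 24 h. With array weights 4 of the listed genes were called at 6 h and 17 at 24 h, and with normexp 1 and 5. The share of all genes called was counted for the main fit only. The list was chosen with earlier results of these data known, so its share beside that of all genes is a description.

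Among 12 measured ligands, Bmp8a, a BMP7-like family member, rose at both times. It went from 109 ± 6.24 to 308 ± 25.9 at 6 h (log2 fold change 1.49, SE 0.09, n = 4 each, limma adjusted p = 3.73e-11) and from 84.8 ± 5.73 to 160.1 ± 16.7 at 24 h (0.91, SE 0.08, n = 5 each, limma adjusted p = 1.57e-08). Its second probe rose likewise, by 1.31 and 0.84. Ethanol readings were near the array median at both times, so the fold change may be understated. The rise was smaller at 24 h by 0.58 (SE 0.12, limma adjusted p = 0.0179 for the difference). With normexp this difference was not called. At 24 h Bmp5 stood at 1.15 times the array median in ethanol and 1.37 times with Dex, with overlapping groups. It rose there by 0.25 (limma adjusted p = 0.0463). That call was lost without ethanol replicates 1, 4 or 5 or Dex replicates 1, 3, 4 or 5, where the fold change was 0.21 to 0.26. The remaining ligands, Bmp2, Bmp6 and Bmp7 among them, also stayed below 2 times the array median and were not called.

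Of 10 receptors and co-receptors, Rgma, a co-receptor of the repulsive guidance family, fell at 6 h from 1449 ± 215 to 942 ± 125 (log2 fold change -0.62, SE 0.12, limma adjusted p = 0.00177). The 6 h call was lost with normexp. At 24 h Rgma read 401 ± 34.4 and 329.7 ± 42.0 (-0.29, limma adjusted p = 0.106). Without 24 h Dex replicate 1 the value was -0.35 and passed the test. Bmpr2, the type II receptor gene, at 3556 ± 159 in ethanol at 6 h, and Acvr1, Acvr2b, Rgmb and Hjv were expressed and not called by their brightest probes. A second, dimmer probe of Rgmb fell at 24 h (-0.29, limma adjusted p = 0.0148). Of 3 measured SMADs, Smad1 (0.13 and -0.00 at the 2 times) and Smad5 (-0.06 and -0.22) were expressed and not called, and Smad9 lay near the median.

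Secreted modulators changed most often by count, with 3 of 15 called at each time. Chrd, which encodes the BMP antagonist chordin, rose from 2668 ± 183 to 3472 ± 510 at 6 h (0.37, SE 0.10, limma adjusted p = 0.0344) and from 1102 ± 81.7 to 1422 ± 100 at 24 h (0.37, SE 0.09, limma adjusted p = 0.0103). Its 6 h call was lost without ethanol replicates 2 or 3 or Dex replicates 1 or 3 (0.37, 0.33, 0.30 and 0.33). It was also lost with each time fitted alone, with array weights, with probes averaged per gene and with normexp (0.37 to 0.38), and the 24 h call was lost with normexp (0.38). Fstl3, a follistatin-like antagonist gene, rose at 6 h from 278 ± 18.1 to 359 ± 19.5 (0.37, limma adjusted p = 0.00663), and so did Nbl1, an antagonist gene of the DAN family (0.37, limma adjusted p = 0.0258). The Fstl3 call was lost with normexp. The Nbl1 call was lost without ethanol replicate 4 or Dex replicates 1 or 2 (0.32, 0.34 and 0.34), with array weights (0.35) and with normexp (0.38). The second, dimmer probe of Nbl1 had 0.25 at 6 h (limma adjusted p = 0.14) and rose at 24 h (0.38, limma adjusted p = 0.00218), where the brightest had 0.20 (limma adjusted p = 0.185).

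At 24 h Twsg1, which encodes twisted gastrulation, a partner of chordin, fell from 2540 ± 67.1 to 1716 ± 50.1 (log2 fold change -0.57, SE 0.07, n = 5 each, limma adjusted p = 2.15e-06). At 6 h it had -0.05, and the difference between the times passed the test (-0.52, SE 0.10, limma adjusted p = 0.00978). That difference was not called with probes averaged per gene or with normexp. The second probe of Twsg1, at 72.1 in ethanol at 24 h, lay below the array median and was not called. Fstl1 fell at 24 h from 1316 ± 117 to 935 ± 91.0 (-0.49, limma adjusted p = 0.00113). Fst, the follistatin gene, had 0.34 at 6 h and 0.43 at 24 h and was not called (limma adjusted p = 0.395 and 0.1), and Bmp1, the chordin-cleaving protease gene, had -0.31 at 24 h and was not called.

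Of 6 inhibitors inside the cell or at its membrane, Tob1 fell at 6 h by 0.36 (limma adjusted p = 0.00832) and had -0.23 at 24 h (limma adjusted p = 0.0550), with groups apart at both times. The 6 h call was lost with normexp. The 24 h value passed the test when any 1 of the 8 arrays of 6 h was left out, and without 24 h Dex replicates 2 or 4 (-0.25 and -0.26). Skil, a SMAD co-repressor gene, fell at 24 h by 0.41 (limma adjusted p = 0.000586), and had -0.24 at 6 h (limma adjusted p = 0.136). Its second probe fell at both times, by 0.38 at 6 h and by 0.32 at 24 h (limma adjusted p = 0.00799 and 0.00975), and its dimmest, near the array median, was not called. Ppm1a and Ski were expressed and not called. Of 8 targets other than the Id genes, Hey1 fell at 6 h from 547 ± 32 to 404 ± 27.0 (-0.44, SE 0.10, limma adjusted p = 0.00862) and rose at 24 h from 465 ± 38.7 to 606 ± 77.9 (0.38, SE 0.09, limma adjusted p = 0.00833). The difference between the times was 0.81 (SE 0.13, limma adjusted p = 0.0018). The 6 h call was lost with array weights (-0.42) and normexp (-0.50), and the calls at 24 h and for the difference were lost with normexp (0.41 and 0.91). Hey1 is also a target of Notch. Msx1 and Dlx3 were expressed and not called. Of the E proteins, the partners of Id proteins, Tcf4 fell at 24 h from 3649 ± 203 to 2745 ± 197 (-0.41, limma adjusted p = 0.000786), while Tcf12 had -0.14 and Tcf3 0.09 and neither was called.

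**Figure D4:**
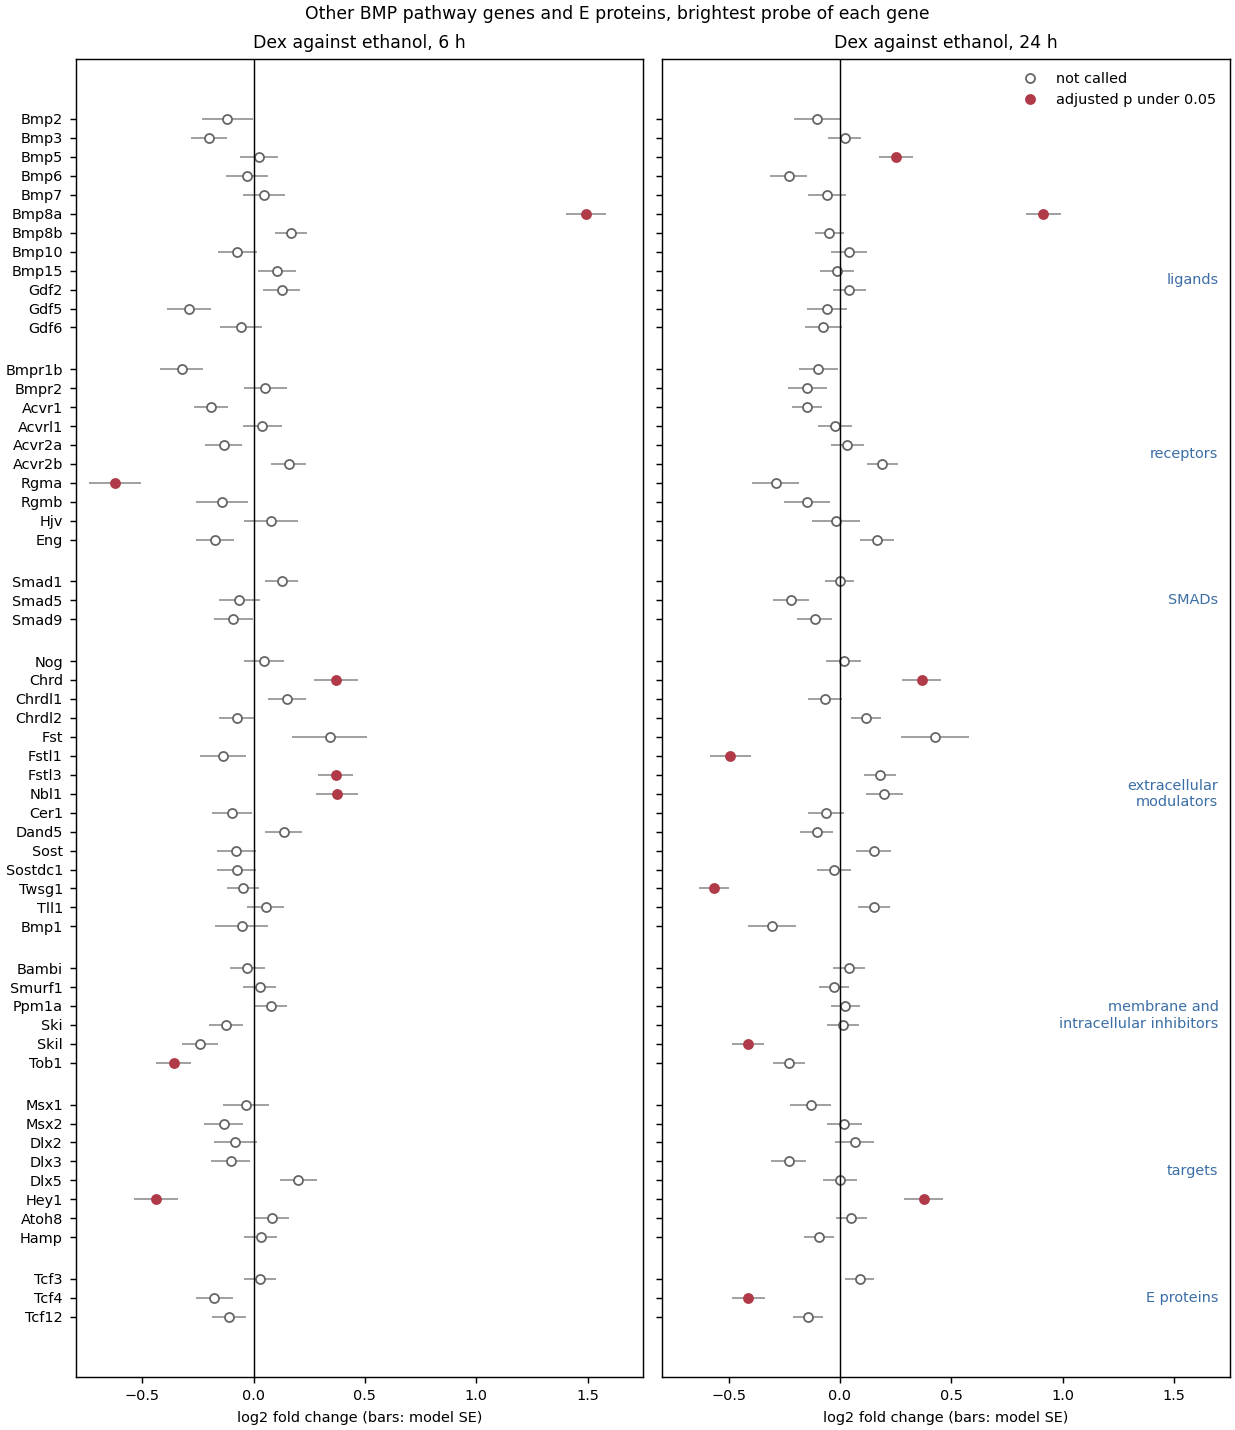
Log2 fold change of Dex over ethanol at 6 h (left) and 24 h (right) for the 57 measured genes of the pathway list, grouped by role, with bars for the model's SE and filled points for an adjusted p under 0.05. The 3 E protein genes are included. Bmp8a stands to the right at both times, Twsg1 and Fstl1 stand to the left at 24 h, and Hey1 changes side between the times.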

How the data were processed

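RNA of 18 C2C12 myotube samples was measured on Illumina mouse WG-6 bead arrays. The deposited values are linear probe intensities, which the authors pre-processed with lumi, per the labels and the submitters' processing notes. The version, background correction and normalization were not stated there. Groups came from the sample titles. The design text speaks of triplicates, while titles number 4 or 5 per group, and all were used. The 18 columns matched the 18 samples.

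Intensities were taken to log2 with a pseudocount of 0. Of 45281 probes, 34885 had 1 gene symbol, 18 several and 10378 none, and 34807 symbols were brought up to date with the gene table of GRCm38.p6. Where a gene had several probes, the 1 with the highest mean log2 intensity stood for it. A mean per group was fitted to all probes with limma 3.58.1 in R 4.3.3, with Benjamini-Hochberg adjustment over 45281 probes. A p below 0.05 after adjustment is a call.

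The arrays varied within groups in fewer directions than their number allows. At 6 h 1 of 6 possible directions, and at 24 h 3 of 8, each held under 0.01% of the spread of the 1126 probes with a mean log2 value above 12. These directions entered the model as covariates, which left 10 residual degrees of freedom in place of 14 and no change in fold changes. Same-numbered ethanol and Dex arrays had the same sign in all 4 pairs of the 6 h direction, and in 4, 5 and 3 of 5 pairs of the 24 h directions. What made these directions empty was not tested.

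Members, lists, tests and alternatives were chosen with earlier results of these data known. Named pathway genes are those called at 6 h or 24 h, and expressed genes (over 2 times the array median in ethanol) in a clause. Some uncalled genes near the median (Bmp2, Bmp6, Bmp7, Smad9 and Tcf3) and the markers were named after their values were seen. Listed pathway genes beyond the 57 measured were not analysed here. The number of arrays limits the precision.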

Additional observations from a re-analysis of the deposited data

Results flagged for a closer look

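An array far from the others of its group was looked for in 108 sets of arrays (the 15 member probes and 12 called pathway genes in 4 groups), and 6 were found. Chance gives about 1 in 20 sets. For the second Bmp4 probe, Dex replicate 1 at 6 h read 138 while the others read 108 to 111. For the brightest Id4 probe, ethanol replicate 5 at 24 h read 63.8, below the next at 70.8. For Bmp5, Dex replicate 2 at 6 h read 106, below the next at 118. For Chrd, ethanol replicate 4 at 24 h read 962, below the next at 1109. For Fstl3, Dex replicate 1 at 24 h read 249, below the next at 277. For Nbl1, ethanol replicate 5 at 24 h read 2569, below the next at 3122.

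The Dex effect differed between 24 h and 6 h (limma test of the difference) for 4 of the 57 pathway genes and 3 receptor targets looked at. Bmp8a rose less at 24 h, by -0.58 (adjusted p = 0.0179). Twsg1 was lower at 24 h and near 0 at 6 h, a difference of -0.52 (adjusted p = 0.00978). Hey1 fell at 6 h and rose at 24 h, a difference of 0.81 (adjusted p = 0.0018). Fkbp5, the receptor target used as a check, rose less at 24 h, by -0.53 (adjusted p = 0.0247).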

How the results depend on the processing

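Of 1876 comparisons of single values with an alternative, 1801 kept their side of the threshold or moved by less than the spread. A further 35 lost a call, 25 gained one, 15 values of member probes moved by more than the spread, and 0 reversed. Member probes were compared by fold change alone, which cannot change when only arrays of the other time are left out. Nor can it change without the covariates, with each time fitted alone or with the replicate number as a block. Part of the 1801 was therefore fixed in advance. The number of pathway genes called at 24 h went from 8 to 15 without the covariates and to 17 with array weights. It was 5 with normexp. At 6 h it went from 7 to 4 with array weights and to 1 with normexp, and the count for the difference of the Dex effects went from 3 to 0 with normexp (limma; 9 of the 57 had an unadjusted p under 0.05 for the difference with normexp, and 9 without it). Leaving out 1 array gave 5 to 8 calls at 6 h, 7 to 10 at 24 h and 3 for the difference. With the replicate number as a block (replicate block), 7 and 11 pathway genes and 3 and 4 member genes were called at 6 h and 24 h. Deviations of same-numbered arrays correlated from -0.109 to 0.17 at 6 h and from -0.914 to -0.181 at 24 h, where all 5 pairs were opposed. The numbers were therefore not used as a pairing, though at 24 h the arrays of a number are not independent. The model takes them as independent, so its SE and adjusted p-values at 24 h may be too small. Member genes called were 2 or 3 at 6 h and 2 to 4 at 24 h over all alternatives. The share of all genes called was not counted under the alternatives, so these counts have no such share beside them. Grem1 and Id2 kept their call at both times under all 29 alternatives, which reuse the same arrays and are not 29 independent checks. The call of Bmp4 at 24 h was lost with the mean of its probes (-0.24), and that of Bmper is described above. Without both 24 h arrays numbered 1, Bmp5 (0.18) was not called, and 12 pathway genes were. Dim readings limit Id4, Smad6 and Smad7.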
